A study of Rattus norvegicus with 2 samples.

Results

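The genes described here are 10 genes of phagocytes that take up and handle lipid, namely Spp1, Gpnmb, Apoe, Apoc1, Trem2, Fabp5, Plin2, Abca1, Lgals3 and Cd9, in the adductor muscle of the rat thigh. They were matched by symbol to the array's probe annotation, which gave 16 probe sets for the 10 genes, out of 20826 probe sets with a single symbol for 14217 genes. The genes were picked with their values in the same comparison known, so their values are given as a description and no test was made. The stimulated sample was muscle of the left hindlimb of male Lewis rats (an inbred strain, body weight 275 g) resected 24 hours after 100 pricks with a steel needle of 0.14 mm diameter within a square of 10 mm by 10 mm. The control sample was muscle of the right hindlimb of male Lewis rats of the same weight, left intact. Each limb was represented by 1 Affymetrix array, and the labels give neither the age nor the number of rats, nor whether both pieces came from 1 animal.

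Macrophages that clear cell debris take in membrane lipid, store part of it in droplets and pass the rest to lipoprotein particles outside the cell. In rodents, TREM2, a receptor for lipids and lipoproteins that signals through the adaptor DAP12 (Tyrobp), is needed for much of this state, and cells in it are known for high Spp1, Gpnmb, Apoe, Fabp5, Lgals3 and Cd9. ABCA1 exports cholesterol to apolipoproteins under control of the LXR nuclear receptors. Macrophages of this kind are known from injured muscle, fat tissue, arteries and brain, but several of the same genes are also active in other cells, among them adipocytes, glia and bone cells.

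In the stimulated limb, 7 of the 10 genes reached a 2-fold higher signal and none a 2-fold lower one, and all 10 lay above 0 on the log2 scale. Spp1 (at least 144-fold) and Gpnmb (16.9-fold) had the highest ratios or bounds of all 9956 measured genes at the floor used. Apoc1, Apoe, Trem2, Fabp5 and Lgals3 lay between 3.39-fold and at least 7.15-fold, while Abca1 (1.99-fold), Plin2 (1.49-fold) and Cd9 (1.44-fold) were under 2-fold. The background was 1.43% of measured genes past 2-fold upward and 1.43% past it downward, with a median log2 ratio of 0.019. The median over the 10 genes was 1.86. Because the genes were chosen from this comparison, nothing is read from their share.

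Signals are the authors' MAS5 values, a linear intensity per probe set. Signals below a floor of 19.8, the median of all signals on both arrays, were raised to it before ratios (stimulated over control) were formed. A gene below the floor on 1 array therefore has a bound, written "at least", and a gene below it on both arrays has no ratio and is called not measured. Repeat measurements exist only where a gene has several probe sets, whose log2 ratios had an SD of 0.31 for a single probe set over 2174 genes, a spread that leaves out limbs and animals. The share of probe sets at or above the floor was 48.9% on the stimulated array and 51.1% on the control array, and the ratio of 3' to 5' probe signal of beta-actin, which rises as RNA degrades, was 2.43 on the stimulated array and 2.26 on the control array. All 18 hybridisation spike-ins read lower for the stimulated sample (median log2 ratio -0.38). Scaling to them moved the median gene to 0.39, so each direction given here is one relative to that gene. In a bulk sample, more cells of a type and more RNA per cell cannot be told apart.

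Promoter windows from RefSeq (build GRCr8, 250 bases before to 50 bases after each annotated start) were found for 8 of the 10 genes, in 12 windows. Fabp5 and Lgals3 had no entry. Both strands were searched for 6 motifs, namely TGANTCA (AP-1), TATAAA (the TATA box), GAGGAAGT (PU.1), TCACGTGA (MITF and TFE factors), the strict DR1 repeat (PPAR) and the strict DR4 repeat (LXR), and no match overlapped another. The 4 genes whose window held a match are shown, each 5' to 3' on its own strand, with the match in capitals. The windows are Spp1 at chr14:5619755-5620054 (minus strand), Gpnmb at chr4:79340878-79341177 (plus strand), Trem2 at chr9:20151730-20152029 (minus strand) and Abca1 at chr5:72596424-72596723 (minus strand).
Spp1: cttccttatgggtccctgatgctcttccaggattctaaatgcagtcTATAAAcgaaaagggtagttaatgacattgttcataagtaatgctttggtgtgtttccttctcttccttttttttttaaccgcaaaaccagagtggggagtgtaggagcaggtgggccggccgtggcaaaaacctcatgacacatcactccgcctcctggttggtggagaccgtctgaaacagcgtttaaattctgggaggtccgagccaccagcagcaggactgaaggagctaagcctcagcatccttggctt
Gpnmb: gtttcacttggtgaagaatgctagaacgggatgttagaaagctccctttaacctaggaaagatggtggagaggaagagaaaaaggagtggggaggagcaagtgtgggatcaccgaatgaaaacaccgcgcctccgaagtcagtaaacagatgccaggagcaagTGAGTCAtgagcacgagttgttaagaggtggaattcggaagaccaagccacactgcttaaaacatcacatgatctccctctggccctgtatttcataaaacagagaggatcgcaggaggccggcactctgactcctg
Trem2: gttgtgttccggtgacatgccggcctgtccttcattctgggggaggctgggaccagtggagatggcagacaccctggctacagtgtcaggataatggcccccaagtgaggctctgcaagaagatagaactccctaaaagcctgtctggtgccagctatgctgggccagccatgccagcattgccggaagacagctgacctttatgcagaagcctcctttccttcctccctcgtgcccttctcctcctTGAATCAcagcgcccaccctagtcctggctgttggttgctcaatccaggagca
Abca1: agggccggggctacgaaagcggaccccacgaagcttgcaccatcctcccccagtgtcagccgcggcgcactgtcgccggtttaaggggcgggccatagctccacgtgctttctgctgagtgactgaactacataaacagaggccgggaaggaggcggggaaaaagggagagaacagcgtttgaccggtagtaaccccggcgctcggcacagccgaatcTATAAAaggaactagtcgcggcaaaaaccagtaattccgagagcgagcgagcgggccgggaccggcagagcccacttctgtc

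The AP-1 letters stood in the windows of Gpnmb, at position -87 (first base of the match, with the start site the window was built on as 0), and Trem2, at position -3. They are also held by 7.33% of the 33469 windows of all genes. The TATA letters stood in those of Abca1, at position -32, and Spp1, at position -204, and in 14.2% of all windows. The other 4 motifs had no match in any window of the 10 genes, and were rare throughout, with 2.42% of all windows holding the PU.1 letters, 0.777% the MITF and TFE letters, 0.0538% the PPAR letters and 0.00598% the LXR letters. A match describes these letters only, and forms of a site that differ from them were not searched. The lack of a match therefore does not mean that a site is absent. No searched motif was shared by more than 2 of the 8 genes.

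Spp1 (Entrez gene 25353) encodes osteopontin, a secreted phosphoprotein that binds integrins and CD44. It had a signal of 2847 in the stimulated limb, against 12.7 in the control limb, on the 1 probe set it has. The control signal lay below the floor, so its log2 ratio of 7.17 is a lower bound. With no floor the log2 ratio was 7.81, and with the floor at the 75th percentile of all signals it was 5.22. Spp1 ranked first in each of these settings, and in every other one except where probe sets that can bind several transcripts were left out, since its only probe set is of that kind. Its neighbours in the order of ratios were Gpnmb, Lilrb4 (an inhibitory receptor of myeloid cells, at least 8.11-fold) and Thbs4 (thrombospondin 4, 7.84-fold), and Tnnc1 (slow troponin C, 7.38-fold) came next. With 2 arrays, the log2 ratio is the only measure by which genes can be called alike.

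Gpnmb (Entrez gene 113955) encodes a transmembrane glycoprotein of endosomes and lysosomes, first known from melanocyte-lineage tumours and also made by phagocytes and osteoclasts. Its signal was 3165 in the stimulated limb and 188 in the control limb, both well above the floor, so this ratio is not a bound. The log2 ratio of 4.08 was 13.1 times the SD of a single probe set. It lay between 4.06 and 4.46 over the 9 settings tried. Its place in the order of ratios was 2 in most settings, 1 where Spp1 had no probe set and 5 where no floor was set.

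Apoe and Apoc1 encode apolipoproteins, the lipid-carrying proteins of lipoprotein particles, and Apoe is also made by macrophages. Apoe (Entrez gene 25728) had a signal of 2587 in the stimulated limb, against 596 in the control limb, 4.34-fold higher. Its second probe set was below the floor on both arrays, with 0.186 in the stimulated limb and 0.735 in the control limb, and gives no ratio. The annotation ties both probe sets to the same transcript record, so the gene's value rests on 1 of its 2 probe sets. Apoc1 (Entrez gene 25292) had a signal of 141 in the stimulated limb, against 10.6, below the floor, in the control limb, at least 7.15-fold higher. With the floor at the 75th percentile this bound was a log2 ratio of 0.89, since the stimulated signal was then less than 2-fold above it.

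Apoe and Apoc1 are direct neighbours in RefSeq's gene order and the only such pair among the 10. The next genes in this cluster, Apoc4 and Apoc2, were below the floor on both arrays. On the other side of Apoe, Tomm40, a mitochondrial import pore, had signals of 204 in the stimulated limb and 213 in the control limb, a log2 ratio of -0.061. The same look, chosen after values were seen, was taken at the 3 protein-coding genes on each side of every one of the 10. Of 54 such neighbours that are not among the 10, 28 were measured, with log2 ratios between -0.91 and 0.44. None of the 28 was 2-fold higher or lower, on a background of 1.43% in each direction.

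Trem2 (Entrez gene 301227) encodes the lipid-sensing receptor itself, and its signals were low. The brighter probe set had 72.5 in the stimulated limb, against 6.98, below the floor, in the control limb, at least 3.66-fold higher. The other had 35.1 in the stimulated limb, against 1.03 in the control limb, at least 1.77-fold higher. Both pointed the same way, and the difference between their bounds reflects how far each stimulated signal lay above the floor. With the floor at the 75th percentile neither probe set counted as measured.

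Fabp5 and Plin2 act inside the cell, FABP5 as a carrier of fatty acids and perilipin 2 as a coat protein of lipid droplets. Fabp5 (Entrez gene 140868) had a signal of 1127 in the stimulated limb, against 315 in the control limb, 3.58-fold higher. The brighter probe set of Plin2 (Entrez gene 298199) had 198 in the stimulated limb, against 133 in the control limb, a log2 ratio of 0.57. Its other probe set had 166 in the stimulated limb and 85.2 in the control limb, a log2 ratio of 0.97. The carrier's ratio was above that of the droplet coat by more than the spread between probe sets of a gene. That spread leaves out limbs and animals, and the difference between the 2 genes was not tested. Both probe sets of Plin2 stayed under 2-fold.

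Abca1 (Entrez gene 313210), the cholesterol exporter, has 4 probe sets. The brightest had a signal of 157 in the stimulated limb, against 78.9 in the control limb, a log2 ratio of 0.99 that fell just short of 2-fold. A second had 53.1 in the stimulated limb and 25.6 in the control limb, 2.07-fold higher. Another, with 46.6 in the stimulated limb and 31.0 in the control limb, had a log2 ratio of 0.59. The last was below the floor on both arrays, at 14.8 in the stimulated limb and 14.5 in the control limb. All 3 measured probe sets pointed the same way, within 0.46 of each other on the log2 scale. Abca1 lay past 2-fold with quantile normalization (log2 ratio 1.02) and with plain spike-in scaling (1.38), where the median gene itself lay at 0.39. Relative to that gene under spike-in scaling it was 0.986, and centred on the median gene of the deposited scale 0.974, both under 2-fold.

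Lgals3 and Cd9 encode surface or secreted proteins with no direct lipid-carrying role. Galectin-3, a lectin that binds galactose-containing sugars and damaged lysosomes, had a signal of 2027 in the stimulated limb, against 599 in the control limb, 3.39-fold higher (Lgals3, Entrez gene 83781). CD9, a tetraspanin that organises other membrane proteins, had 230 in the stimulated limb and 160 in the control limb, a log2 ratio of 0.53 (Entrez gene 24936). Cd9 stood lowest of the 10, at rank 832 of 9956 genes. Its log2 ratio was 1.69 times the SD of a single probe set.

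**Figure D1:**
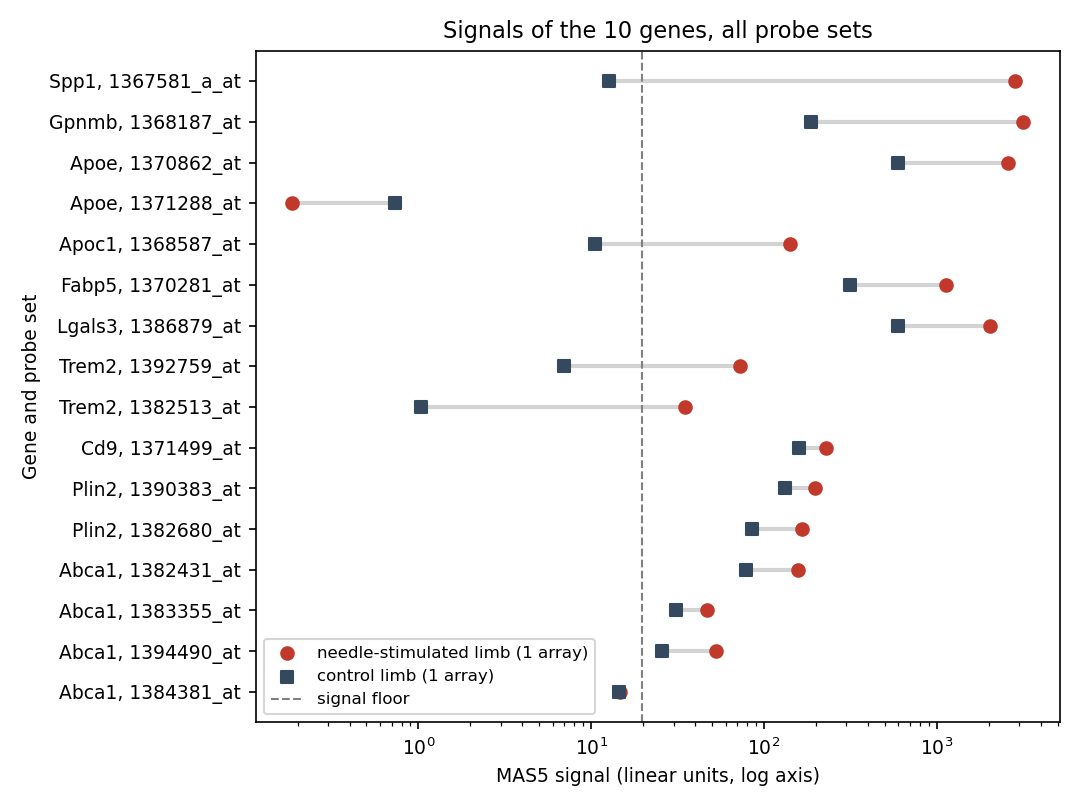
MAS5 signal (log axis) of all 16 probe sets of the 10 genes, with the stimulated limb as circles, the control limb as squares (1 array each) and the floor of 19.8 as a dashed line. The control signals of Spp1, Apoc1 and both Trem2 probe sets lie left of the floor, while those of Gpnmb, Fabp5 and Lgals3 lie well to its right.

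Counted by probe set, 14 of the 16 were measured, 10 of them on both arrays and 4 on the stimulated array alone. All 14 lay above 0 and 8 were at least 2-fold higher, where 1.31% of the 13384 measured probe sets with 1 symbol were. At 1.5-fold in place of 2-fold, 8 of the 10 genes were higher, against 6.59% of all measured genes, with Plin2 and Cd9 the 2 that were not. Among the 7 genes above the floor on both arrays, Gpnmb lay above Apoe and Lgals3 lay above Abca1 (by 0.77 on the log2 scale) by more than 0.44, the SD of the difference between 2 probe sets of a gene. Apoe, Fabp5 and Lgals3 followed each other by less than that, as did Abca1, Plin2 and Cd9. These differences between genes were not tested. The ratios of Spp1, Apoc1 and Trem2 are bounds, and the places of Apoc1 and Trem2 in the order moved with the settings. Apoc1 lay at 3.74 with no floor and at 0.89, under Abca1, with the floor at the 75th percentile. Trem2 lay at 1.35, under Fabp5 and Lgals3, with the median over probe sets.

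**Figure D2:**
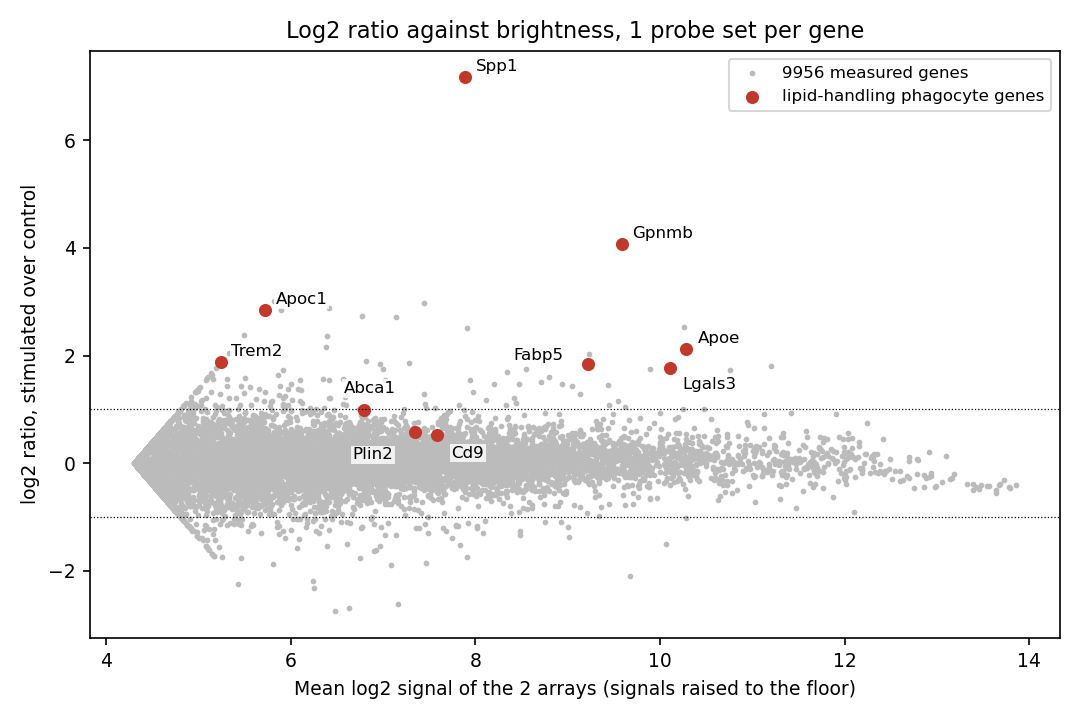
Log2 ratio of stimulated over control against mean log2 signal for 9956 measured genes (grey, 1 probe set per gene), with the 10 genes in red and 2-fold marked by dotted lines. Spp1 at 7.17 and Gpnmb at 4.08 lie above every other gene, and Abca1, Plin2 and Cd9 lie below the upper dotted line.

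The label of these genes as phagocyte genes was set beside macrophage markers. Of 25 markers of monocytes and macrophages, 21 were measured, of which 16 lay above 0, 2 of them past 2-fold, and none was 2-fold lower. Their median log2 ratio was 0.56, and their summed signal was 9814 in the stimulated limb and 7380 in the control limb. Ptprc (CD45) was 2.33-fold higher, Cd68 (a lysosomal membrane protein) 2.12-fold, Adgre1 (a surface receptor that defines rodent macrophages) 1.87-fold and Itgb2 (a leukocyte integrin subunit) 1.86-fold higher. The 5 below 0 were the complement genes C1qa (1.44-fold lower), C1qb (1.49-fold) and C1qc (1.77-fold), the Fc receptor Fcgr3a (at least 1.48-fold) and the chemokine receptor Ccr2 (at least 1.21-fold). General macrophage markers were thus present in both limbs and differed less in size than Spp1, Gpnmb and Apoe, a difference that was not tested.

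Signalling genes downstream of TREM2 went both ways. Of 12 listed, 10 were measured, with 6 above 0 (2 of them past 2-fold), none 2-fold lower and a median log2 ratio of 0.092. With the floor at the 75th percentile the median was 0.75, but only Tyrobp (log2 ratio 1.69) and Grb2 (-0.19) were then measured. The adaptor gene Tyrobp had a signal of 583 in the stimulated limb, against 181 in the control limb, 3.22-fold higher. Syk, the kinase it recruits, had 48.7 in the stimulated limb and 21.8 in the control limb, 2.24-fold higher. The phospholipase gene Plcg1 was 1.67-fold lower and the exchange factor Vav1 1.47-fold higher, while Plcg2, the phospholipase C that TREM2 uses, was below the floor on both arrays. At the floor used, receptor, adaptor and kinase were thus all higher. The other measured genes of the list had ratios or bounds under 2-fold. Trem2 was picked with its value known and its ratio is a bound, and the control signal of Syk lay just above the floor. Neither Trem2 nor Syk was measured with the floor at the 75th percentile, which left the adaptor alone.

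Lysosomal and protease genes of lipid-laden macrophages had a median log2 ratio of 0.56, or 0.40 with the higher floor, over 19 measured of 25. In all, 16 lay above 0, among them 2 past 2-fold, and none was 2-fold lower. Clec7a (dectin-1, a receptor for fungal glucans) had 103 in the stimulated limb, against 17.9, below the floor, in the control limb, at least 5.20-fold higher. Besides Cd68, the lysosomal protease Ctsd (1.90-fold) and the tetraspanin Cd63 (1.90-fold) had the largest ratios. Itgax and Mmp12 did not reach the floor on either array, and Lpl, lipoprotein lipase, named after its value was seen, had a log2 ratio of 0.052.

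The LXR and cholesterol efflux list, which holds Abca1, had a median log2 ratio of -0.028 on the deposited scale and of 0.36 with spike-in scaling, over 15 measured of 19. Of these, 7 lay above 0, and 1 gene was past 2-fold in each direction. Pltp, a phospholipid transfer protein, had a signal of 418 in the stimulated limb, against 185 in the control limb, 2.25-fold higher. Scarb1, the HDL receptor SR-BI, had 47.6 in the stimulated limb, against 108 in the control limb, 2.27-fold lower, and its other probe set gave -1.34 on the log2 scale. Rxra, the partner of LXR, was 1.94-fold lower. Abcg1, a further LXR-regulated exporter named after its values were seen, had a log2 ratio of -0.028, and its other measured probe set -1.20, whose stimulated signal was below the floor. Abca1 and Pltp were thus higher and Scarb1 and Rxra lower, with no common direction.

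Receptors for uptake of lipid and dying cells had a median log2 ratio of -0.062, or 0.076 with spike-in scaling, over 10 measured of 17, with 5 above 0 and none of them past 2-fold, and 1 (Scarb1) 2-fold lower. The scavenger receptor gene Stab1 was 1.51-fold higher and the fatty acid transporter Cd36 1.44-fold lower, with 302 in the stimulated limb and 434 in the control limb. Gas6, a bridge to dying cells, was 1.26-fold lower, while its other probe sets gave -0.11 and 0.67 on the log2 scale.

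Other lipid droplet and PPAR-regulated genes lay on both sides of 0. Over 18 measured of 19, their median log2 ratio was -0.14, or 0.25 with spike-in scaling, with 8 above 0 and none of them past 2-fold, and 2 past 2-fold downward. Plin1, the droplet coat of adipocytes, had 15.8, below the floor, in the stimulated limb, against 63.8 in the control limb, at least 3.23-fold lower. Cidec, a droplet fusion protein, was at least 2.91-fold lower, Angptl4, an inhibitor of lipoprotein lipase, 1.91-fold lower and G0s2, an inhibitor of lipolysis, 1.74-fold lower. Among the other perilipins, named after their values were seen, Plin3 (log2 ratio 0.32) and Plin5 (at least 0.37) lay on Plin2's side of 0, and Plin4 (-0.26) on that of Plin1.

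Relatives of single genes among the 10 did not share their ratios. Among 11 fatty acid binding and retinoid binding genes other than Fabp5, 4 were measured, with a median log2 ratio of -0.20, or 0.19 with spike-in scaling, and 0 beyond 2-fold. Fabp4, the adipocyte form encoded near Fabp5, had 819 in the stimulated limb and 1000 in the control limb, a log2 ratio of -0.29, and Fabp3, the muscle form, had 1449 in the stimulated limb and 1651 in the control limb, one of -0.19. Among 10 galectin genes and ligands other than Lgals3, 5 were measured, with a median of -0.32, or 0.067 with spike-in scaling, and 2 at least 2-fold lower. Lgals9 was 2.52-fold lower and Lgals3bp, a secreted galectin ligand, 2.18-fold lower, while Lgals1 had 2613 in the stimulated limb and 1658 in the control limb, 1.58-fold higher. Fabp5 and Lgals3 were the only measured genes of these families at least 2-fold higher.

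Among 24 tetraspanins other than Cd9, 20 were measured, with 14 above 0, a median log2 ratio of 0.18, 2 past 2-fold upward and none downward. Those 2 were the leukocyte tetraspanins Cd53 (397 in the stimulated limb, against 159 in the control limb, 2.49-fold) and Cd37 (82.9 in the stimulated limb, against 33.3 in the control limb, 2.49-fold). Tspan9 was 1.63-fold higher, while its other probe set gave -0.21 on the log2 scale. Cd9, at 1.44-fold, was within the range of this family.

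The list of receptors for osteopontin and relatives of Spp1 had 6 of 12 genes measured, with 4 above 0, a median log2 ratio of 0.18 and 0 beyond 2-fold. Cd44 had 205 in the stimulated limb, against 108 in the control limb, 1.91-fold higher, and its other probe set gave 0.55 on the log2 scale. The integrin subunit gene Itgav had 60.4 in the stimulated limb, against 33.7 in the control limb, 1.79-fold higher, and Itgb1 was 1.20-fold higher. Ibsp, Dmp1 and Mepe, the bone matrix relatives of Spp1 and its neighbours in the genome, were below the floor on both arrays. The list of MITF and TFE factors, known to drive Gpnmb, and of melanosome genes had 4 of 10 measured, a median log2 ratio of 0.026 (or -0.012 with the median over probe sets) and 0 beyond 2-fold. Tfe3 was 1.47-fold higher, Mitf (132 in the stimulated limb and 124 in the control limb) and Tfeb had log2 ratios of 0.090 and -0.039, and Tfec was 1.28-fold lower. Pmel, the melanosome relative of Gpnmb, was below the floor on both arrays.

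**Figure D3:**
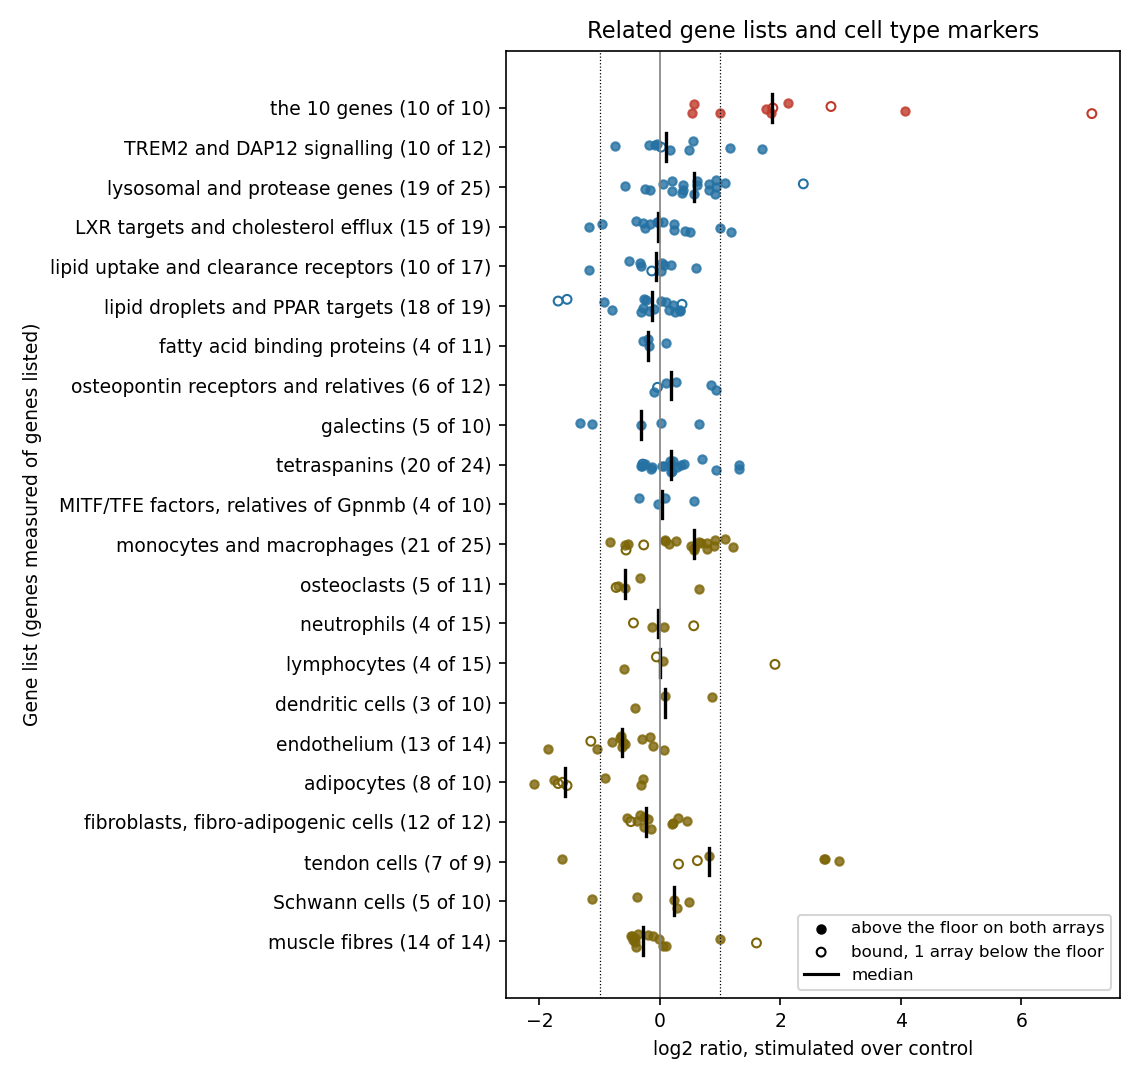
Log2 ratio of stimulated over control for the measured genes of the 10 genes (red), 10 related lists (blue) and 11 marker lists (brown), with open circles for bounds and black bars for medians. The median is 1.86 for the 10 genes, 0.56 for macrophage markers and for lysosomal and protease genes, and -1.58 for adipocyte markers.

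Markers of other cells that use some of the 10 genes lay on both sides of 0. Adipocytes hold Plin2 and Apoe, and all 8 measured of 10 adipocyte markers lay below 0, with a median log2 ratio of -1.58 (or -0.91 with the higher floor), 5 at least 2-fold lower and a summed signal of 4648 in the stimulated limb and 9232 in the control limb. Cfd (adipsin) was 4.26-fold and Adipoq (adiponectin) 3.38-fold lower. Osteoclasts hold Spp1 and Gpnmb, and of 11 osteoclast markers 5 were measured, with 4 below 0, a median of -0.59 and a summed signal of 366 in the stimulated limb and 461 in the control limb. Tcirg1 (a subunit of the proton pump) had 72.4 in the stimulated limb, against 46.1 in the control limb, 1.57-fold higher. The chloride transporter gene Clcn7 was at least 1.66-fold lower, Acp5 (tartrate-resistant phosphatase) was 1.63-fold lower, and Ctsk (cathepsin K) and Nfatc1 had log2 ratios of -0.59 and -0.32. Calcr and Mmp9 were below the floor on both arrays.

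Schwann cells hold Apoe and Cd9, and 5 of 10 Schwann cell markers were measured, with 3 above 0, a median log2 ratio of 0.23 (or -0.074 with the median over probe sets) and a summed signal of 1003 in the stimulated limb and 987 in the control limb. Mbp was 2.18-fold lower and Prx 1.40-fold higher, and Sox10, which defines the lineage, was below the floor on both arrays. Of 9 tendon cell markers, 7 were measured, 6 of them above 0, 3 past 2-fold upward and 1 downward, a median of 0.81 and a summed signal of 1528 in the stimulated limb and 551 in the control limb. That median was 1.95 with no floor, 1.89 with the higher floor and 1.77 without the probe sets that can bind several transcripts. Thbs4, Tnmd (6.69-fold) and Fmod (6.58-fold) led that list, and Egr1 was 3.10-fold lower. The part of these cells in the values of the 10 genes was not tested.

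Neutrophil markers were measured for 4 of 15 genes, with a median log2 ratio of -0.035, or 0.35 with spike-in scaling, a summed signal of 215 in the stimulated limb and 209 in the control limb, while S100a8, Cxcr2 and Mmp8 were below the floor on both arrays. Lymphocyte markers were measured for 4 of 15, with a median of -0.0076, or 0.095 with spike-in scaling, and a summed signal of 172 in the stimulated limb and 135 in the control limb. Of these, Cd8a was at least 3.76-fold higher, while Cd3d and Cd3e were below the floor on both arrays. Dendritic cell markers were measured for 3 of 10, with a median of 0.085 and a summed signal of 479 in the stimulated limb and 529 in the control limb. Flt3 and Clec9a were below the floor on both arrays. With the higher floor the median was -0.17, from Itgae and Clec10a alone. Of 14 endothelial markers, 13 were measured, their median log2 ratio was -0.63 and their summed signal was 1062 in the stimulated limb and 1773 in the control limb, with Plvap 3.62-fold lower. All 12 fibroblast markers lay within 2-fold, with a median of -0.23, or 0.15 with spike-in scaling. The labelled tissue was checked on 14 muscle fibre markers, which were all measured, with a summed signal of 93770 in the stimulated limb and 118052 in the control limb. Their median was -0.27, or 0.11 with spike-in scaling. Of these markers 1, Myh7, was at least 2-fold higher (at least 3.04-fold), while its other probe set gave a bound of 0.19 on the log2 scale. The part of these further cell types was likewise not tested.

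**Figure D4:**
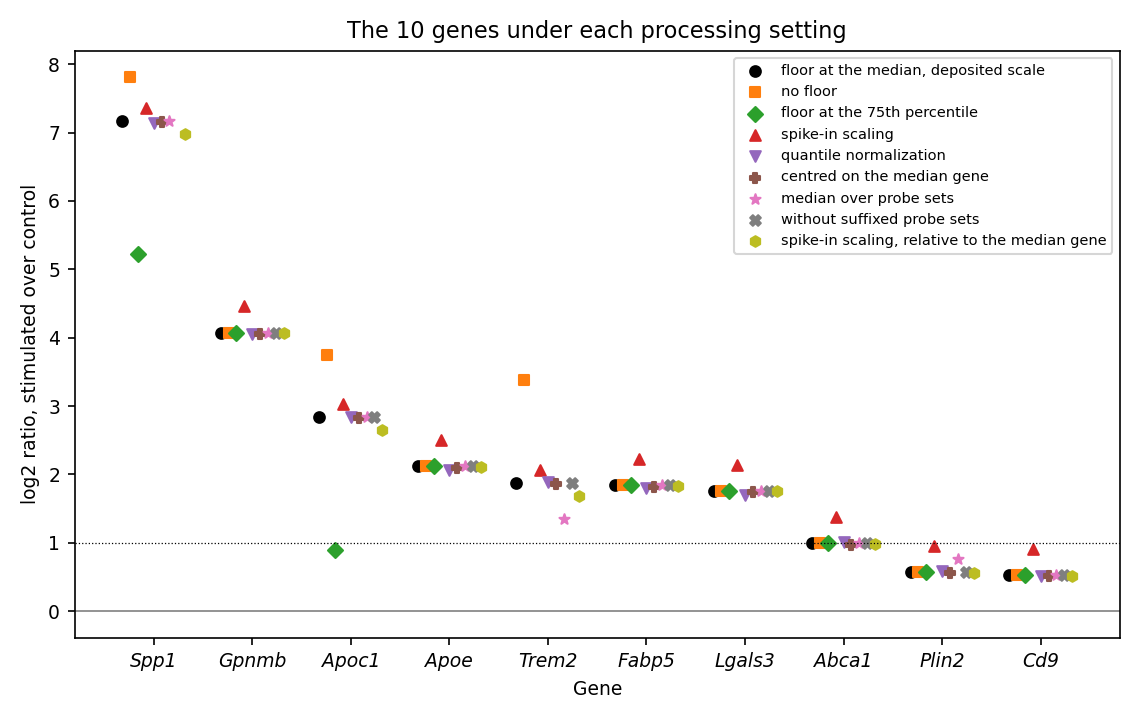
Log2 ratio of stimulated over control for each of the 10 genes under 9 settings of floor, scaling and choice of probe set, with 2-fold as a dotted line. Gpnmb stays between 4.06 and 4.46 and Apoe between 2.07 and 2.50, whereas the genes with a control signal below the floor range more widely, Apoc1 between 0.89 and 3.74 and Spp1 between 5.22 and 7.81.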

How the data were processed

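Total RNA from 1 stimulated and 1 control muscle sample was purified on silica columns, amplified once and biotin-labelled, per the labels' protocols. The deposited values are linear signal intensities, and per the submitters' processing notes the authors made them with MAS5, which scales each array by 1 factor. Its version and scaling target and the genome build were not given in the sources read. Trimmed by 2% of probe sets on either side, the mean signal was 75.8 for each array.

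Of 31099 probe sets, 57 manufacturer's controls were left out. The platform annotation gave 1 symbol to 20826 probe sets, several to 436 and none to 9780, and 20758 of the first were matched by identifier to RefSeq (GRCr8). Signals below the floor were raised to it, log2 ratios were taken, and the brightest measured probe set (by mean log2 signal) stood for its gene, which gave 9956 genes. Precision is limited by having 1 array per group, and no p-value was computed. The ratio and count steps were tested on simulated data, with folds set only in genes well above the floor on both arrays, so bounds were not covered.

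The 10 genes and the 21 lists were chosen with earlier results of these data known. Named genes were the 10, up to 4 genes of each list with the largest absolute log2 ratio, measured genes of lists of 12 or fewer, and the 3 genes on each side of Spp1 and Gpnmb in the order of ratios. Genes named for lying below the floor, as chromosome neighbours, as the exceptions in a count or as further family members were chosen after their values were seen. Alternatives were another floor, no floor, spike-in, quantile and median scaling, another choice of probe set and a 1.5-fold threshold. Python 3.11.15, numpy 2.4.6 and pandas 2.3.3 were used.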

Additional observations from a re-analysis of the deposited data

How the results depend on the processing

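The count of the 10 genes at least 2-fold higher was 7 as reported, ran from 5 (floor at the 75th percentile) to 8 over 9 alternatives, and the count at least 2-fold lower was 0 in each. Leaving out suffixed probe sets, those that can bind several transcripts, gave 6, since Spp1 then has none. The median over the 10 genes lay between 1.76 and 1.98 in the alternatives other than plain spike-in scaling, where it was 2.18. Relative to the median gene under that scaling, an alternative added after the data were seen, it was 1.79. Each of the 10 stayed above 0 in every setting that measured it, and the largest shifts were those of Spp1, Apoc1 and Trem2, whose control signals lay below the floor. Without a floor these were 7.81, 3.74 and 3.38, and with that higher floor 5.22 for Spp1 and 0.89 for Apoc1, while Trem2 was not measured. The number of all genes at least 2-fold higher was 142 as reported, 274 with no floor, 52 at the higher floor and 535 with plain spike-in scaling, and at least 2-fold lower 142, 346, 49 and 44.

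Medians of related lists that changed sign were small. Spike-in scaling turned 9, to 0.36 (LXR), 0.076 (uptake receptors), 0.25 (lipid droplets), 0.19 (fatty acid binding), 0.067 (galectins), 0.35 (neutrophils), 0.095 (lymphocytes), 0.15 (fibroblasts) and 0.11 (muscle fibres). The median gene itself lay at 0.39 under that scaling. Relative to it all 9 medians kept the sign they had on the deposited scale, among them -0.035 (LXR) and -0.32 (galectins). Quantile normalization gave 0.0093 (LXR), 0.00045 (neutrophils), 0.12 (lymphocytes) and 0.00048 (muscle fibres). The floor at the 75th percentile, which tests fewer genes, gave 0.013 (uptake receptors) and -0.072 (Schwann cells). It also gave 0.065 (neutrophils, from Lcn2 alone) and -0.17 (dendritic cells, from Itgae and Clec10a alone). The median over probe sets gave 0.0074 (LXR), -0.012 (MITF and TFE factors) and -0.074 (Schwann cells), and leaving out suffixed probe sets -0.047 (Schwann cells). Without a change of sign, the median moved by over 1.5 times in fold for tendon markers (0.81 as reported, 1.95 with no floor, 1.89 with the higher floor, 1.77 without suffixed probe sets). It also did so for adipocytes (-0.91 with the higher floor) and for TREM2 and DAP12 signalling (0.75 with it, over Tyrobp and Grb2 alone). The cause was not tested. No paired analysis was possible because each group has 1 sample. With 1 array per group, no replicate could be left out.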
